A study of Homo sapiens with 8 samples.

Results

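Megalin (LRP2) and 9 related genes of lipoprotein receptor endocytosis were followed in the established human neuroblastoma line SH-SY5Y after expression of estrogen-related receptor gamma (ERRg, encoded by ESRRG), an orphan nuclear receptor. The 10 genes (LRP2, LRP1, LRP1B, LRP4, LRP8, VLDLR, LRP12, CUBN, LRPAP1 and DAB2) were taken by name from the 67060 genes of the count table, and all 10 were found there. They were chosen by their family and function with the CPM and log2 fold changes of ERRg against GFP in these same libraries known, so their own differences are a description. No p-value is given for them, and whether the fit over all genes called a member is stated only to set the members beside the share of all genes called. The series holds 8 RNA sequencing libraries in 2 groups of 4. In the ERRg group the cells received an adenovirus for BioID-ERRg, a fusion of Flag-tagged ERRg to the biotin ligase BioID. In the GFP group the adenovirus was for BioID-GFP-NLS, in which the ligase is joined to nuclear-targeted green fluorescent protein. Both groups were at 80% confluence, received 0.5 ul of virus and were harvested after 48 h. All 8 libraries thus come from virus-treated cells of 1 cell line that make a BioID fusion, and no library of cells without virus is used here. The design thus adds a virus-borne fusion protein and does not target the cells' own ERRg. Reads of the fusion and of the cells' own ESRRG were not separated, and no protein level was measured here.

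Receptors of the LDL receptor family sit in the plasma membrane and bind lipoproteins, proteases with their inhibitors, vitamin carriers and signalling proteins on the outside. Short motifs in their cytoplasmic tails recruit adaptor proteins that draw them into clathrin-coated pits. Cargo is released in endosomes, and most receptors return to the surface. Megalin is best known from the kidney proximal tubule, where it takes up filtered proteins together with cubilin (CUBN). In neurons, VLDLR and LRP8 are the receptors for reelin, and LRP1 takes up a broad range of ligands.

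Gene reads numbered 21.0 to 23.0 M in ERRg libraries and 27.7 to 35.5 M in GFP libraries. Values are counts per M gene reads (CPM) scaled by edgeR's TMM factors, and a gene is called where edgeR's quasi-likelihood test gave a Benjamini-Hochberg adjusted p under 0.05 over all 21993 genes tested. Log2 fold changes are ERRg over GFP. ESRRG stood at 823, 710, 887 and 808 CPM in ERRg libraries 1 to 4, against 32.6, 33.0, 37.0 and 36.7 CPM in GFP libraries 1 to 4, which fits the labels. The share of reads that fell outside exons was 46.7% ± 1.31 in ERRg libraries and 20.9% ± 3.58 in GFP libraries (SD, n = 4 each). ERRg libraries 1 and 2 resembled each other, as did 3 and 4 (chi-square of counts per gene 2.72 and 4.54), more than libraries across these pairs did (8.74 to 19.5). Of 10 noradrenergic neuroblastoma markers, 8 reached 1 CPM in a group, with sums of 433 to 515 CPM in ERRg and 755 to 870 CPM in GFP libraries, while TH and CHGA were listed at 0. Of 10 proximal tubule markers 4 reached 1 CPM, and the list summed to 12.6 to 13.7 CPM in ERRg and 22.1 to 27.98 CPM in GFP libraries, mostly through CUBN itself. The sodium phosphate transporter SLC34A1, which defines that tubule, averaged 0.0308 CPM in ERRg and 0.120 CPM in GFP libraries. Sums ran from 178 to 251 CPM in ERRg and 269 to 358 CPM in GFP libraries for 6 epithelial markers, and from 1.72 to 2.02 CPM in ERRg and 2.17 to 2.59 CPM in GFP libraries for 6 myeloid markers (AIF1 at 0). For 6 fibroblast markers, not all of them specific to fibroblasts, sums ran from 859.5 to 953.4 CPM in ERRg and 1549 to 1726 CPM in GFP libraries. The part of these differences in the results below was not tested. In such bulk samples fewer cells of a type and less RNA per cell cannot be told apart.

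The 10 genes did not move one way. Of the 9 that could be tested, 4 were called higher in ERRg libraries (LRP2, LRP1B, VLDLR and LRP12) and 4 lower (LRP1, LRP4, LRPAP1 and CUBN). LRP8 was not called, and DAB2 had too few reads to test. Over all genes 74.7% were called, 38.8% higher and 35.9% lower, so nothing is read from the number of members called. In 7 of the 9 the ERRg and GFP libraries did not overlap, beside 68.4% of all genes tested. The median log2 fold change of the 9 was 0.12, beside 0.09 over all tested genes and -0.30 over the 13426 coding genes tested. What set the members apart from each other was direction and size, from 5.84 for LRP2 to -1.29 for CUBN.

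**Figure D1:**
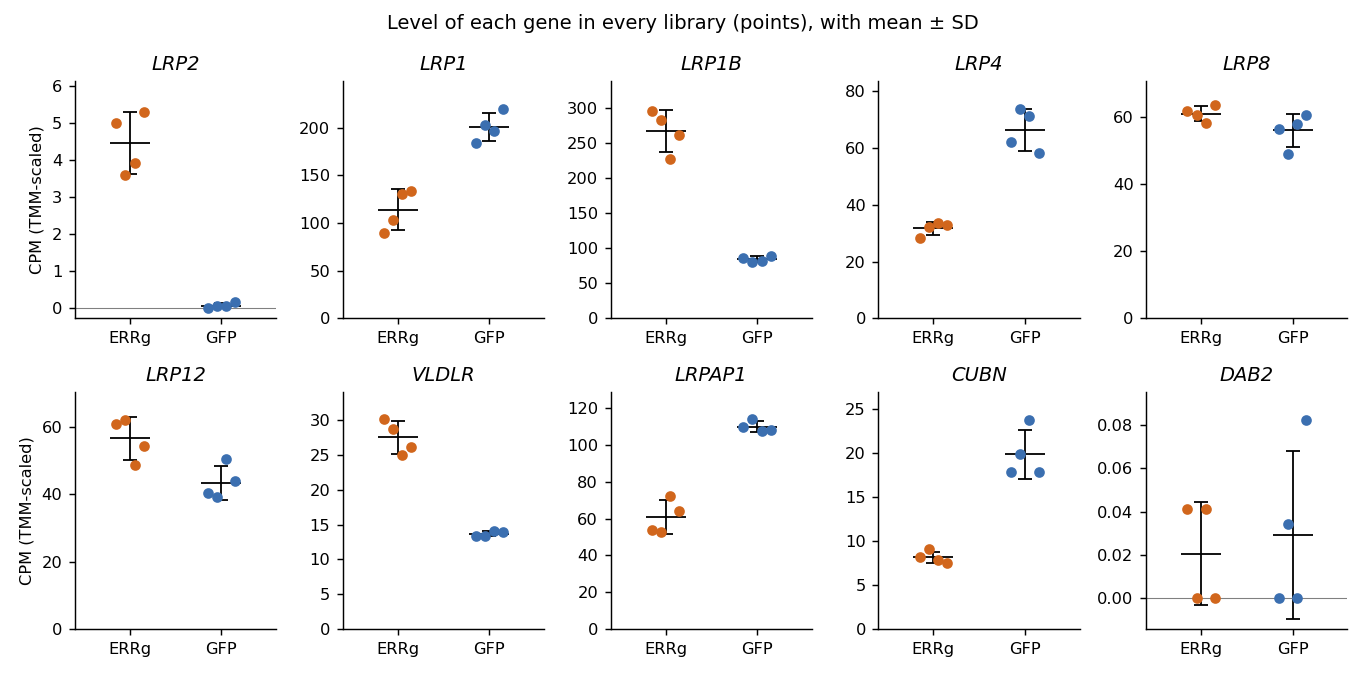
CPM of the 10 genes in each library on separate linear axes, with ERRg libraries left and GFP libraries right in every panel; points are libraries and bars the group mean ± SD (n = 4 each). LRP2 lies between 3.60 and 5.32 CPM in ERRg libraries and at most 0.164 CPM in GFP libraries, and LRP8 and LRP12 are the tested genes whose groups overlap.

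LRP2 encodes megalin, the large multi-ligand receptor of absorptive epithelia (chr2:169127109-169362685, minus strand, GRCh38, 79 exons in the longest coding transcript). It stood at 5.01, 3.60, 3.93 and 5.32 CPM in ERRg libraries 1 to 4, against 0, 0.0689, 0.0718 and 0.164 CPM in GFP libraries 1 to 4. Every ERRg library was thus far above every GFP library, and the gene was nearly without reads in GFP. These values rest on 122, 96, 96 and 131 reads in ERRg libraries, against 0, 2, 2 and 4 reads in GFP libraries. The 445 reads summed over ERRg have an exact Poisson 95% interval of 405 to 488, and the 8 over GFP one of 3.45 to 15.8, which cover counting error only. The 0 in GFP library 1 allows up to 3 reads. The fitted log2 fold change was 5.84 (SE 0.35), the group means differed 58.5-fold, and leaving out 1 library at a time gave 5.35 to 6.36. The size is loosely fixed because the GFP side holds so few reads, while the direction was the same in all 4 ERRg libraries. Even in ERRg cells, megalin RNA was scarce beside the other receptors.

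The promoter stretches of LRP2, VLDLR and CUBN are shown because these 3 genes had the largest differences among the members with a RefSeq window. Sequences are from RefSeq (GRCh38.p14), 5′ to 3′ on the gene's strand, kept to bases upstream of the start in both RefSeq and GENCODE. Capitals mark AAGGTCA, an extended half-site bound by estrogen-related receptors, and GGGCGG, the GC box bound by SP factors, on either strand.
LRP2, chr2:169362686-169362784, minus strand: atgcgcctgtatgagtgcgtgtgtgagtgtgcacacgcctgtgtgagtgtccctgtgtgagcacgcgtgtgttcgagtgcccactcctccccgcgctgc
VLDLR, chr9:2621537-2621786, plus strand: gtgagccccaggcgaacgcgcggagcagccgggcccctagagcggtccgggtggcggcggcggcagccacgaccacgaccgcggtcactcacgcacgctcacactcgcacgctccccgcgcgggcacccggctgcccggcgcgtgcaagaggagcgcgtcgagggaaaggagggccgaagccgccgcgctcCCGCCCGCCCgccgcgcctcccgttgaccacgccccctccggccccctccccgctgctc
CUBN, chr10:17129818-17130061, minus strand: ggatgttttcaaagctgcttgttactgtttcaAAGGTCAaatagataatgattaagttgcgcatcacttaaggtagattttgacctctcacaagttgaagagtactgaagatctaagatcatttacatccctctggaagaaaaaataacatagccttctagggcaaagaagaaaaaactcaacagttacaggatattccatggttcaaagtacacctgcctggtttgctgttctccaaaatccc

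RefSeq windows were matched for 7 of the 10 genes, 8 windows in all because LRPAP1 has 2, and LRP1B, LRP4 and LRP12 were not matched. The full ERR element TNAAGGTCA was found on either strand in 0.854% of the 35116 promoter windows of 250 bases and in 0 of the 8 member windows. The shorter AAGGTCA, which every TNAAGGTCA also holds, was in 3.44% of all windows and in 1 of the 8, that of CUBN, where it lies at positions -218 to -212 from the RefSeq start. CUBN was lower in ERRg libraries. GGGCGG was in 42.6% of all windows and in 7 of the 8. VLDLR carries overlapping reverse-strand copies at -59 to -54 and -55 to -50, printed as 1 run of capitals. The stretch shown for LRP2 holds none of the motifs, and the GC boxes of its RefSeq window start at -141, -132 and -87, downstream of the GENCODE start. A match of letters is a description, and these windows say nothing about where ERRg binds.

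VLDLR, the very low density lipoprotein receptor, also binds reelin (chr9:2621834-2660053, plus strand, 19 exons). It stood at 30.2, 28.8, 25.1 and 26.2 CPM in ERRg libraries, against 13.4, 13.4, 14.1 and 14.01 CPM in GFP libraries. The lowest ERRg library was well above the highest GFP library, and the GFP libraries were nearly level. The means were 27.6 ± 2.33 CPM in ERRg libraries and 13.7 ± 0.390 CPM in GFP libraries (SD, n = 4 each), a log2 fold change of 1.01 (SE 0.10).

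LRP8 is the other reelin receptor (chr1:53242364-53328070, minus strand, 19 exons). It stood at 62.1, 60.6, 58.2 and 63.7 CPM in ERRg libraries, against 56.4, 49.2, 57.9 and 60.8 CPM in GFP libraries. The groups overlapped, since GFP library 4 was above ERRg libraries 2 and 3. The log2 fold change was 0.12 (SE 0.09) and was not called with TMM scaling. It was called higher under upper-quartile factors (0.43) and under library totals (0.52), which moved the median over all genes to 0.40 and 0.49, and with a minimum of 1 CPM in 4 libraries (0.24). The ratio of VLDLR to LRP8 reads within a library does not depend on scaling. It was 0.486, 0.474, 0.431 and 0.411 in ERRg libraries, against 0.237, 0.273, 0.244 and 0.230 in GFP libraries. The balance of the reelin receptor RNAs thus lay further towards VLDLR in all 4 ERRg libraries, with LRP8 still the more abundant in reads. The ratio is not adjusted for base composition. Coding genes of like GC content had median log2 fold changes of 0.28 for VLDLR and -0.22 for LRP8. With offsets for GC content, transcript length and gene span, VLDLR was at 0.76 and LRP8 at 0.18. The part of base composition in the ratio was not tested.

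LRP1B, a close relative of LRP1 that is often deleted in tumours, spans 1900.279 kb (chr2:140231423-142131701, minus strand, 91 exons). It stood at 296, 284, 228 and 262 CPM in ERRg libraries, against 86.1, 80.2, 81.3 and 89.5 CPM in GFP libraries. The groups were far apart, and ERRg library 3 was the lowest of its group. The means were 267 ± 29.9 CPM in ERRg libraries and 84.3 ± 4.33 CPM in GFP libraries (SD, n = 4 each), a log2 fold change of 1.67 (SE 0.10). Of 8 small annotated genes that lie in or across the LRP1B locus, on either strand, 5 had more reads in each ERRg library than in any GFP library, and in 3 the groups overlapped. These reads are not scaled for library size. By CPM, the groups did not overlap in 68.4% of all genes tested, in either direction, so nothing is read from this count. On the strand of LRP1B, the pseudogene AC117947.1 had 36, 34, 23 and 27 reads in ERRg libraries, against 6, 8, 2 and 6 reads in GFP libraries, and the snRNA copy RNU6-904P had 33, 52, 37 and 23 reads in ERRg libraries, against 12, 8, 4 and 6 reads in GFP libraries. On the opposite strand, the pseudogene AC010740.1 had 17, 22, 20 and 17 reads in ERRg libraries, against 2, 0, 1 and 3 reads in GFP libraries. The microRNA gene MIR7157 was among the 3 that overlapped, with 3, 8, 10 and 6 reads in ERRg libraries, against 1, 0, 0 and 6 reads in GFP libraries. These 4 were singled out after their values were seen. The part that reads outside exons play in the LRP1B count was not tested.

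LRP1 is the broadly expressed endocytic receptor for protease complexes and lipoproteins (chr12:57128493-57213351, plus strand, 89 exons). It stood at 89.6, 103, 130 and 134 CPM in ERRg libraries, against 183.5, 202.7, 196.7 and 219.9 CPM in GFP libraries. All ERRg libraries were below all GFP libraries, and ERRg libraries 1 and 2 were below 3 and 4. The means were 114 ± 21.4 CPM in ERRg libraries and 201 ± 15.1 CPM in GFP libraries (SD, n = 4 each). The log2 fold change was -0.81 (SE 0.11), -0.62 without ERRg libraries 1 and 2 and -1.08 without 3 and 4. LRP1 and LRP1B have coding transcripts of like length, 14.897 and 16.535 kb, so their reads can be set against each other in a library. LRP1B had 3.30, 2.76, 1.75 and 1.96 reads per LRP1 read in ERRg libraries, against 0.469, 0.396, 0.413 and 0.407 in GFP libraries. LRP1 thus had more reads than LRP1B in every GFP library and fewer in every ERRg library, whatever the scaling between libraries. The ratio is not adjusted for base composition, and GC content is 60.1% in LRP1 and 42.2% in LRP1B. Coding genes of like GC content had median log2 fold changes of -1.14 for LRP1 and 0.28 for LRP1B. With offsets for GC content, transcript length and gene span, LRP1 was at -0.21 and LRP1B at 1.03. The part of base composition in the ratio was not tested.

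LRP4 is the agrin receptor of the neuromuscular synapse and also acts in Wnt signalling (chr11:46856868-46918642, minus strand, 38 exons). It stood at 28.3, 32.1, 33.6 and 32.7 CPM in ERRg libraries, against 62.1, 73.8, 71.2 and 58.3 CPM in GFP libraries. The groups were clearly separate. The means were 31.7 ± 2.32 CPM in ERRg libraries and 66.4 ± 7.32 CPM in GFP libraries (SD, n = 4 each), a log2 fold change of -1.07 (SE 0.10).

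LRP12 is a small member of the family with a lesser known ligand range (chr8:104489231-104589024, minus strand, 7 exons). It stood at 61.0, 62.2, 48.7 and 54.3 CPM in ERRg libraries, against 40.4, 39.2, 50.4 and 43.8 CPM in GFP libraries. The groups overlapped, since ERRg library 3 was below GFP library 3. The log2 fold change of 0.38 (SE 0.10) was called, but it was 0.23 and not called without ERRg libraries 1 and 2.

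CUBN encodes cubilin, a peripheral membrane protein that binds intrinsic factor with vitamin B12, albumin and apolipoprotein A-I and relies on amnionless or megalin for uptake (chr10:16823966-17129817, minus strand, 67 exons). It stood at 8.17, 9.04, 7.82 and 7.47 CPM in ERRg libraries, against 17.9, 19.9, 23.7 and 17.9 CPM in GFP libraries. Every ERRg library was about as low as the next, and all were below all GFP libraries. The means were 8.12 ± 0.672 CPM in ERRg libraries and 19.8 ± 2.75 CPM in GFP libraries (SD, n = 4 each), a log2 fold change of -1.29 (SE 0.12). Megalin and cubilin, which work together in the proximal tubule, thus differed in opposite directions. Amnionless (AMN), the membrane anchor of cubilin, had 9, 9, 15 and 13 reads in ERRg libraries, against 10, 5, 4 and 6 reads in GFP libraries. It was too low to test, and was singled out after its values were seen.

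LRPAP1 encodes the receptor-associated protein RAP, an endoplasmic reticulum chaperone that keeps newly made receptors of the family from binding ligands too early (chr4:3503597-3532559, minus strand, 8 exons). It stood at 54.1, 52.8, 72.3 and 64.3 CPM in ERRg libraries, against 109.9, 114, 107.6 and 108 CPM in GFP libraries. The ERRg libraries were all lower, and libraries 1 and 2 were lower than 3 and 4. The means were 60.9 ± 9.17 CPM in ERRg libraries and 110.0 ± 2.95 CPM in GFP libraries (SD, n = 4 each). The log2 fold change was -0.85 (SE 0.10), -0.71 without ERRg libraries 1 and 2 and -1.06 without 3 and 4. DAB2, the clathrin adaptor that binds the megalin tail in epithelia (chr5:39371675-39462300, minus strand), had 1, 0, 1 and 0 reads in ERRg libraries, against 0, 1, 0 and 2 reads in GFP libraries. No difference was detectable at this depth, since all 8 libraries were below the 3 reads that a count of 0 allows.

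**Figure D2:**
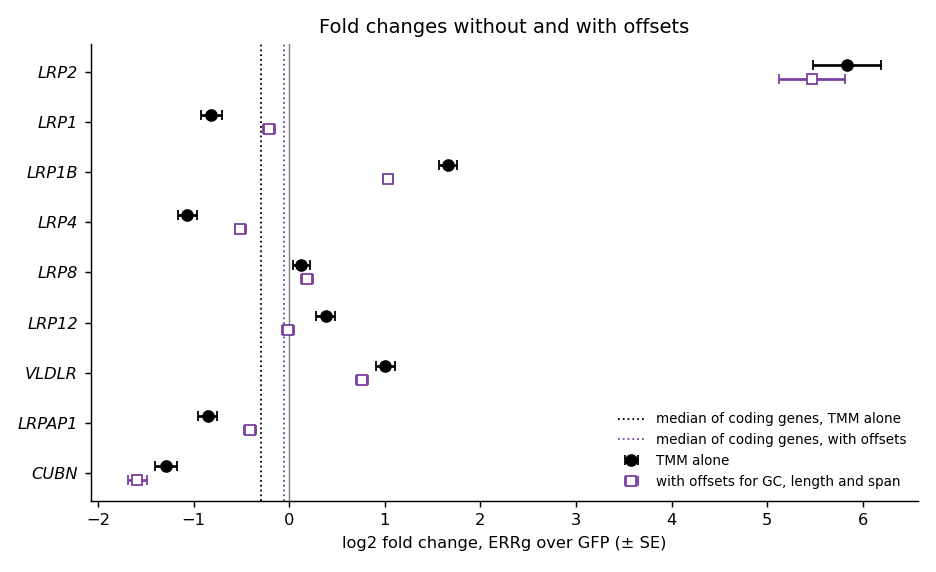
Log2 fold change (ERRg over GFP) of the 9 tested genes with bars of 1 SE, from the fit with TMM scaling and from the fit that adds offsets for base composition, transcript length and gene span. LRP2 stands at 5.84 and 5.47 in the fits, CUBN is the lowest in both, and LRP12 moves from 0.38 to -0.01.

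Fold changes over all coding genes followed base composition in these libraries, so the members were also set beside genes of like GC content. Coding genes were ordered by GC content and cut into 10 bins of nearly equal gene number. Their median log2 fold change was 0.64 in the bin of lowest GC content and -1.33 in the highest. LRP1, with 60.1% GC in its longest coding transcript, lay in a bin with a median of -1.14, and its own -0.81 was above that. LRP4 and LRPAP1 (-1.07 and -0.85) lay close to the medians of their bins (-0.98 and -0.72), as did LRP12 (0.38 beside 0.47). LRP1B and VLDLR lay above the 0.28 of theirs. LRP8 (0.12) lay above the -0.22 of its bin. LRP2 and CUBN share that bin and lay on opposite sides of it at 5.84 and -1.29.

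**Figure D3:**
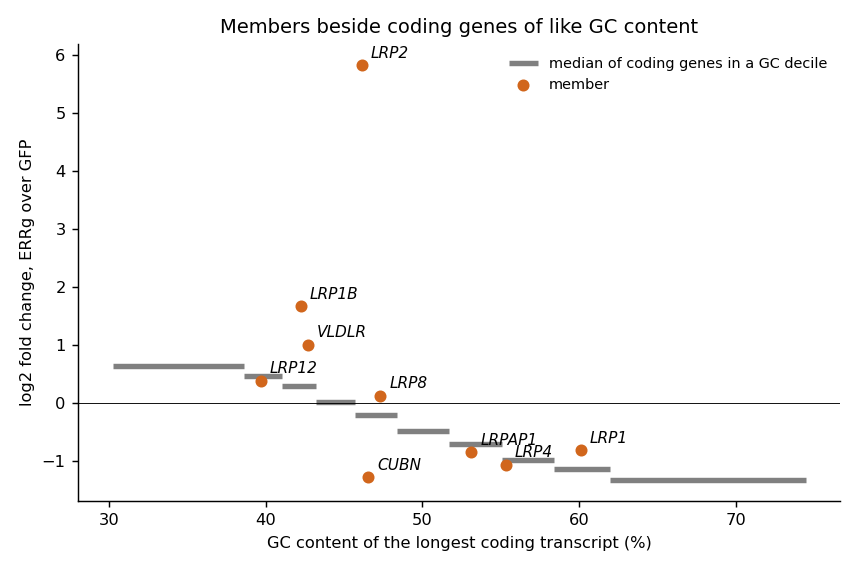
Log2 fold change (ERRg over GFP) of the 9 tested genes against the GC content of the longest coding transcript in percent, with the median of all tested coding genes in each of 10 bins of GC content. The medians run down to -1.33 at the highest GC content; LRP2, LRP1B, VLDLR, LRP8 and LRP1 stand above them, CUBN stands below, and LRP4, LRP12 and LRPAP1 lie near them.

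With per-library offsets for GC content, transcript length and span of the gene, fitted over coding genes, the member counts were again 4 higher and 4 lower, with LRP8 called in place of LRP12. Over all 13426 coding genes this fit called 32.1% higher and 39.7% lower. LRP2 stood at 5.47 (SE 0.34), LRP1B at 1.03 (SE 0.05), VLDLR at 0.76 (SE 0.07) and LRP8, now called, at 0.18 (SE 0.06). CUBN stood at -1.59 (SE 0.10), LRP4 at -0.51 (SE 0.06), LRPAP1 at -0.41 (SE 0.06) and LRP1 at -0.21 (SE 0.06). The size for LRP1, LRP4 and LRPAP1 was thus less than with TMM alone, while that of CUBN was larger. LRP1 lay above the median of its GC bin, and LRP4 and LRPAP1 near theirs, yet all were called lower with the offsets. What makes the GC bins and the offsets differ for these genes was not tested. LRP12 stood at -0.01 (SE 0.06) and was not called. The median of the 9 was -0.01, beside -0.05 over coding genes in this fit.

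Per kb of the longest coding transcript, the order of levels differed between the groups. In ERRg libraries LRP1B came first at 16.2 ± 1.81 CPM per kb, next LRP12 at 13.8 ± 1.52, whose range overlapped that of LRP1B. LRP8 at 7.995 ± 0.304, LRP1 at 7.66 ± 1.44 and LRPAP1 at 5.74 ± 0.865 followed, each overlapping the next. LRP4 (3.92 ± 0.287), VLDLR (3.01 ± 0.255), CUBN (0.681 ± 0.0563), LRP2 (0.282 ± 0.0523) and DAB2 (0.00452 ± 0.00522) came last, with no overlap between neighbours. In GFP libraries LRP1 came first at 13.5 ± 1.01 CPM per kb, apart from LRP12 at 10.6 ± 1.22, which overlapped LRPAP1 at 10.4 ± 0.278. LRP4 (8.22 ± 0.906) overlapped LRP8 (7.34 ± 0.649), and LRP1B followed at 5.10 ± 0.262. CUBN (1.66 ± 0.230) overlapped VLDLR (1.498 ± 0.0426), and DAB2 (0.00643 ± 0.00857) overlapped LRP2 (0.00482 ± 0.00427). LRP2 was the gene of the set that was at the level of DAB2 in GFP cells and above it in ERRg cells, still below CUBN.

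The summed level of the 7 receptors (LRP2, LRP1, LRP1B, LRP4, LRP8, LRP12 and VLDLR) was 54.0, 54.4, 49.1 and 53.7 CPM per kb in ERRg libraries, against 43.9, 45.0, 48.3 and 47.6 CPM per kb in GFP libraries. With TMM scaling the sums lay close together, with the lowest ERRg library just above the highest GFP library, while their make-up differed more. LRP1B made up 30.6% ± 2.23 of the sum in ERRg and 11.1% ± 0.734 in GFP libraries (SD, n = 4 each). LRP1 made up 14.6% ± 3.18 in ERRg and 29.2% ± 1.75 in GFP libraries. LRP4 made up 7.45% ± 0.812 in ERRg and 17.8% ± 2.11 in GFP libraries. The shares of LRP8 (15.2% ± 0.456 in ERRg, 15.9% ± 1.18 in GFP) and LRP12 (26.0% ± 1.89 in ERRg, 22.8% ± 1.79 in GFP) were nearer to each other. VLDLR made up 5.69% ± 0.325 in ERRg and 3.25% ± 0.0574 in GFP libraries. LRP2 made up 0.535% ± 0.0923 in ERRg and 0.0102% ± 0.00896 in GFP libraries, so its large fold change added little receptor RNA. LRPAP1, the shared chaperone, had 0.0945, 0.0916, 0.139 and 0.113 of the summed receptor level per kb in ERRg libraries, against 0.236, 0.239, 0.210 and 0.215 in GFP libraries. Each ERRg library thus had less LRPAP1 RNA per receptor RNA than any GFP library. Neither these ratios nor the shares above are adjusted for GC content. The log2 fold change of LRPAP1 lay near the median of its GC bin (-0.85 beside -0.72). The part of base composition in the ratios and shares was not tested.

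**Figure D4:**
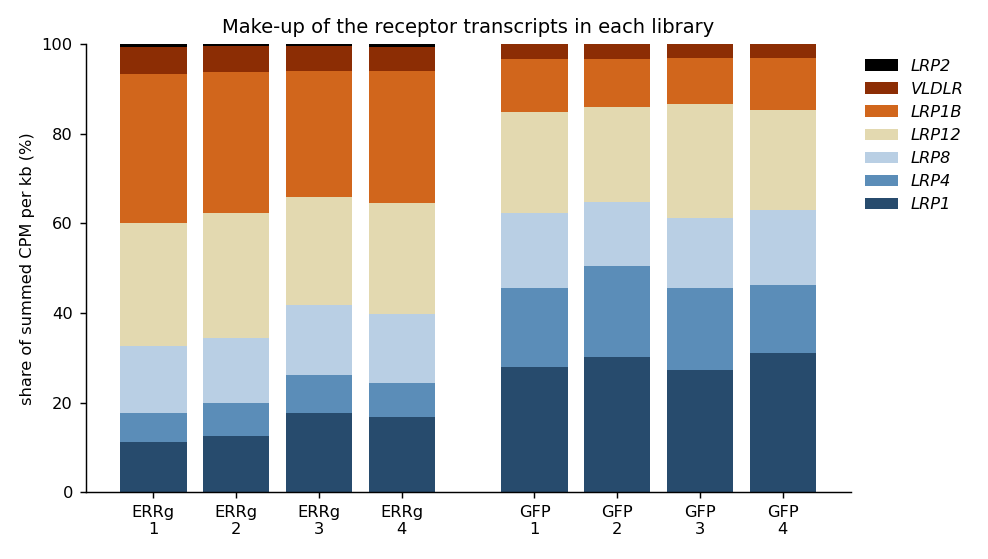
Share of each of the 7 receptors in their summed level (CPM per kb of longest coding transcript, in percent) in every library, as stacked bars with ERRg libraries left and GFP libraries right. LRP1B takes 30.6% on average in ERRg and 11.1% in GFP libraries, and LRP1 takes 14.6% in ERRg and 29.2% in GFP libraries.

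Several members overlap other annotated genes, and whether the counting used strand is not given in the sources used here. VLDLR-AS1, an antisense gene that overlaps VLDLR over 21526 bases, had 97, 72, 67 and 71 reads in ERRg libraries, against 31, 43, 32 and 46 reads in GFP libraries. It rose with VLDLR by 1.13 on the log2 scale (SE 0.21, edgeR adjusted p = 6.76e-05), and reads of such a pair may not be fully told apart. LRP4-AS1 had 9, 14, 25 and 16 reads in ERRg libraries, against 24, 30, 22 and 31 in GFP libraries (-0.61 on the log2 scale, SE 0.31, edgeR adjusted p = 0.0797). The gene was called lower without ERRg library 3 (-0.94) and without GFP library 3 (-0.80). LRP1-AS had 3, 5, 21 and 14 reads in ERRg libraries, against 18, 9, 19 and 17 in GFP libraries (-0.42 on the log2 scale, SE 0.45, edgeR adjusted p = 0.400). These counts were small beside those of the genes they overlap. LRP2BP, a gene elsewhere in the genome named for the binding of its product to megalin, averaged 13.2 ± 0.771 CPM in ERRg and 6.53 ± 1.73 CPM in GFP libraries (SD, n = 4 each). It rose by 1.02 on the log2 scale (SE 0.15, edgeR adjusted p = 3.30e-06), and was at 0.63 with the offsets.

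The genes whose profiles over the 8 libraries were most like that of LRP2 were ranked by the Euclidean distance between log2 CPM values centred on their mean. Members, pseudogenes, long intergenic RNAs and genes with clone names or no symbol were left out of the ranking. The log2 CPM values had a prior count of 2, which shrinks the contrast of genes with few GFP reads, LRP2 among them. The nearest was CALCR, the calcitonin receptor, at a distance of 0.638, with 4.84 ± 0.655 CPM in ERRg and 0.122 ± 0.0867 CPM in GFP libraries. It matched LRP2 in level as well as in contrast. ESRRG itself came next at 1.32. SPP1, which encodes the secreted protein osteopontin, followed at 1.49 with 139 ± 9.60 CPM in ERRg and 6.16 ± 0.563 CPM in GFP libraries. CABP7, a calcium-binding protein (1.81), had 13.9 ± 3.05 CPM in ERRg and 0.817 ± 0.291 CPM in GFP libraries. ADARB2, a brain RNA-binding protein of the RNA editing family (1.83), had 2.02 ± 0.162 CPM in ERRg and 0.0175 ± 0.0202 CPM in GFP libraries. With 2 groups in the series, likeness here is mostly a like difference between the groups.

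Around the members, 96 further genes of the receptor pathway were taken from 5 lists, and 81 could be tested. Of these, 16 were called higher and 50 lower in ERRg libraries, with a median log2 fold change of -0.65, beside 0.09 over all tested genes and -0.30 over coding genes. With the offsets 13 were higher and 50 lower, with a median of -0.29 beside -0.05 over coding genes. Over all genes tested, coding or not, 38.8% were called higher and 35.9% lower with TMM. The TMM shares over coding genes alone were not computed. Over coding genes, the offset fit called 32.1% higher and 39.7% lower. The split moved to 25 higher and 44 lower under upper-quartile factors and to 27 higher and 42 lower under library totals. Over all genes, calls in the higher direction made up 51.9% of calls under TMM, 64.6% under upper-quartile factors and 68.6% when library totals were used. None of the 15 genes left untested had more than 15 reads in a library, and LRP6 was among 3 listed at 0 in all 8, which was not read as absence. The lists were chosen with earlier results of these data known. Most genes named below were picked from them by smallest p or by a log2 fold change beyond 1.5. Their small p-values thus follow from that choice and are a description.

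**Figure D5:**
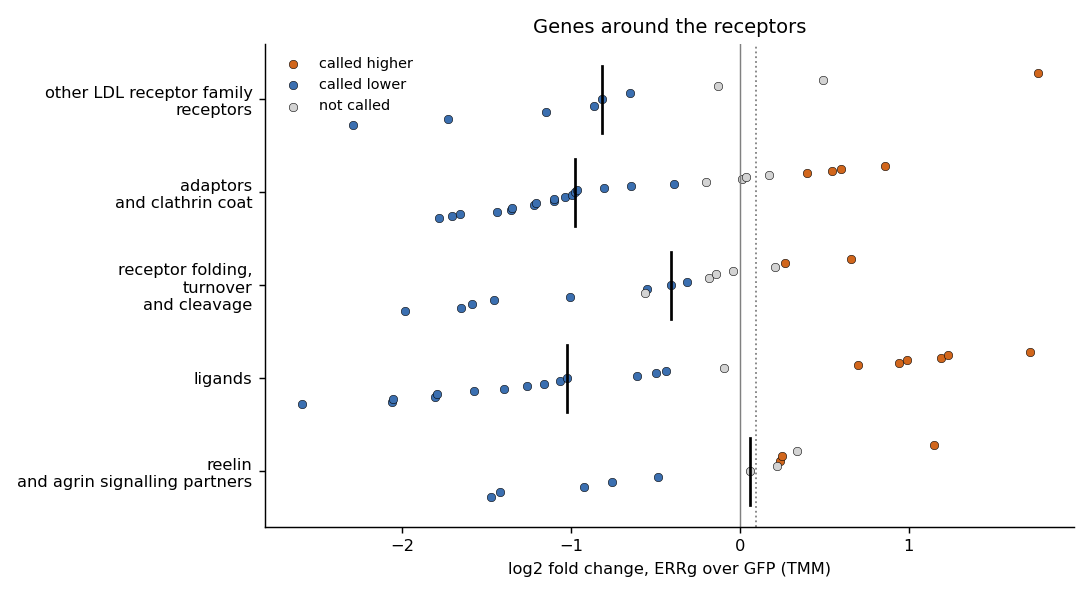
Log2 fold change (ERRg over GFP, edgeR with TMM) of each tested gene in the 5 pathway lists, 1 row per list, with a black bar at the list's median and a dotted line at the median of all tested genes (0.09). The list medians lie between -1.02 for ligands and 0.06 for reelin and agrin partners.

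Of the other receptors of the family, 1 of 9 tested was higher and 6 were lower (median -0.82, and -0.30 with the offsets). LRP10, a sorting receptor between the Golgi and endosomes, fell to 66.9 ± 10.6 CPM in ERRg libraries, against 221 ± 23.4 CPM in GFP libraries (log2 fold change -1.72, SE 0.11, edgeR adjusted p = 9.77e-11). LRP3 fell to 3.73 ± 1.29 CPM in ERRg libraries, against 18.2 ± 2.50 CPM in GFP libraries (-2.29, SE 0.17, edgeR adjusted p = 4.10e-10). LRP5, the Wnt co-receptor, fell by 1.15 (edgeR adjusted p = 1.06e-08) and LDLRAD3 fell by 0.82 (edgeR adjusted p = 1.11e-07) on the log2 scale. LDLRAD4, a membrane inhibitor of TGF-beta signalling, was the 1 called higher with TMM. LDLRAD4 rose to 11.8 ± 0.755 CPM in ERRg libraries, against 3.48 ± 0.485 CPM in GFP libraries (1.76, SE 0.13, edgeR adjusted p = 3.42e-10). With the offsets LRP10 was at -0.84, LRP3 at -1.07, LRP5 at -0.30, LDLRAD3 at -0.78 and LDLRAD4 at 1.45.

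Of the adaptors and clathrin coat genes, 4 of 25 tested were higher and 17 lower (median -0.98). With the offsets 1 was higher and 18 lower (median -0.29), and under upper-quartile factors 7 were higher and 16 lower. GULP1, an adaptor of LRP1 (0.86, edgeR adjusted p = 9.65e-07), and the endocytic motor MYO6 (0.40, edgeR adjusted p = 0.00125) were called higher with TMM but lower with the offsets (-0.30 and -0.25). Both were singled out after their values were seen. SNX17, which returns LRP1 from endosomes to the surface, fell to 77.7 ± 14.5 CPM in ERRg libraries, against 266 ± 45.5 CPM in GFP libraries (-1.78, edgeR adjusted p = 2.45e-10). Genes that also fell were the megalin-binding scaffold GIPC1 (-1.66, edgeR adjusted p = 1.68e-10), the adaptor SHC1 (-1.44, edgeR adjusted p = 1.59e-10), the AP-2 subunit AP2S1 (-1.70, edgeR adjusted p = 2.87e-10) and the clathrin light chain CLTA (-1.21, edgeR adjusted p = 1.00e-09). With the offsets SNX17 was at -0.80, GIPC1 at -0.43, SHC1 at -0.54, AP2S1 at -0.65 and CLTA at -0.71. DAB1, the adaptor that carries the reelin signal from VLDLR and LRP8, was singled out after its values were seen. It fell to 8.23 ± 0.905 CPM in ERRg libraries, against 12.9 ± 1.499 CPM in GFP libraries (-0.65, SE 0.12, edgeR adjusted p = 6.86e-05), and was at -1.04 with the offsets and -0.24, no longer called, with library totals.

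Of the genes for receptor folding, turnover and cleavage, 2 of 15 tested were higher and 8 lower (median -0.41, and -0.29 with the offsets). The proteases FURIN, which processes LRP1, and MMP14, which sheds it, both fell (-1.65 for FURIN, edgeR adjusted p = 1.88e-10, and -1.45 for MMP14, edgeR adjusted p = 1.34e-10). The gamma-secretase subunits PSENEN, APH1A and NCSTN, parts of the complex that cuts receptor stubs in the membrane, fell too (-1.98 for PSENEN, -1.59 for APH1A and -1.01 for NCSTN, with edgeR adjusted p = 3.37e-09, 4.64e-10 and 6.53e-09 in that order). With the offsets FURIN was at -0.52, MMP14 at -0.44, PSENEN at -1.32, APH1A at -0.68 and NCSTN at -0.44. The 2 called higher were the proteases ADAM10 (0.66, edgeR adjusted p = 6.24e-06) and ADAM17 (0.27, edgeR adjusted p = 0.0111). With the offsets they were at -0.12 and 0.07, and neither was called. Both were singled out after their values were seen.

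Of the ligands, 6 of 21 tested were higher and 14 lower (median -1.02, and -0.32 with the offsets), and the plasminogen activators that LRP1 and megalin clear were among those lower. PLAT, tissue plasminogen activator, fell to 56.5 ± 6.33 CPM in ERRg libraries, against 341 ± 40.1 CPM in GFP libraries (-2.59, SE 0.11, edgeR adjusted p = 1.98e-13). PLAU, urokinase, fell to 24.5 ± 3.45 CPM in ERRg libraries, against 102 ± 9.64 CPM in GFP libraries (-2.06, edgeR adjusted p = 9.64e-12). SERPINE2, a secreted protease inhibitor, fell by 1.07 on the log2 scale (edgeR adjusted p = 5.94e-10). With the offsets PLAT was at -1.88, PLAU at -1.27 and SERPINE2 at -1.04.

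RELN, the secreted ligand of VLDLR and LRP8, fell to 5.94 ± 0.438 CPM in ERRg libraries, against 24.7 ± 2.55 CPM in GFP libraries (-2.05, SE 0.11, edgeR adjusted p = 1.67e-11), and was at -2.34 with the offsets. The reelin ligand was thus lower where the receptor VLDLR was higher. AGRN, the agrin that LRP4 binds, fell to 38.1 ± 9.58 CPM in ERRg libraries, against 113 ± 8.999 CPM in GFP libraries (-1.57, edgeR adjusted p = 1.58e-09), and was at -0.42 with the offsets. APOB, a lipoprotein ligand and 1 of the 6 ligands called higher, rose to 2.01 ± 0.257 CPM in ERRg libraries, against 0.615 ± 0.263 CPM in GFP libraries (1.72, SE 0.27, edgeR adjusted p = 9.32e-06), and was at 1.45 with the offsets. Also among the 6 were MT2A (1.23, edgeR adjusted p = 7.55e-09) and MT1X (1.19, edgeR adjusted p = 2.37e-05). With the offsets MT2A was at 2.60 and MT1X at 2.13, and both were singled out after their values were seen.

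Of the reelin and agrin signalling partners, 3 of 11 were higher and 5 lower (median 0.06, and -0.25 with the offsets, where 4 were higher and 7 lower). The kinases LIMK1 (-1.47, edgeR adjusted p = 2.84e-10) and SRC (-1.42, edgeR adjusted p = 1.25e-09) fell. RAPGEF1 (-0.92, edgeR adjusted p = 5.77e-08) and the adaptor CRKL (-0.76, edgeR adjusted p = 1.77e-07), which pass on the reelin signal, fell as well. MUSK, the kinase that LRP4 activates when agrin binds, rose to 2.64 ± 0.410 CPM in ERRg libraries, against 1.18 ± 0.239 CPM in GFP libraries (1.15, SE 0.21, edgeR adjusted p = 4.54e-05). With the offsets LIMK1 was at -0.47, SRC at -0.58, RAPGEF1 at -0.28, CRKL at -0.39 and MUSK at 1.27. Among agrin pathway genes, AGRN and LRP4 were thus lower and MUSK was higher in both fits. DOK7 and RAPSN, which act with MUSK at the neuromuscular synapse, were singled out after their values were seen. Neither passed the test with TMM (0.34, edgeR adjusted p = 0.124 for DOK7, and 0.22, edgeR adjusted p = 0.633 for RAPSN), and both were called higher with the offsets (1.56 for DOK7 and 1.40 for RAPSN).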

How the data were processed

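RNA was sequenced from 8 SH-SY5Y libraries, 4 per group, as total RNA depleted of ribosomal RNA in directional libraries, per the labels' protocols. The deposited table gives the authors' read counts, unnormalised, for 67060 genes and 5 summary lines. Those lines entered neither library sizes nor tests. They held reads outside exons, reads in more than 1 gene (5.44% ± 0.415 of reads in ERRg and 12.1% ± 1.46 in GFP) and reads aligned more than once (6.41% ± 0.449 in ERRg and 11.9% ± 1.32 in GFP). The submitters' processing notes name STAR 2.7.8a, HTSeq 0.11.3, Trim Galore 0.6.6, CASAVA and DESeq2, and the build GRCh38. For the annotation release and the strand setting, nothing is given in the sources used here.

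Counts were fitted with edgeR 4.0.16 in R 4.3.3 (TMM, filterByExpr, quasi-likelihood test, two-sided, group as the sole term), which tested 21993 of 41858 genes with a count, and SEs were derived from its F statistic. GC content, length (longest coding transcript), span and positions came from GENCODE 29 (58488 identifiers matched), and symbols from a name table (60463 matched). The offset fit subtracts a per-library loess (span 0.3) on GC content, length and span. Motifs were searched as exact letters on both strands. Whether replicates are separate cultures is not stated in the labels. The p-values therefore reflect only how these 4 libraries per group vary, which may be technical. A listed 0 was not read as absence of an RNA.

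The members and lists were chosen with earlier results of these data known. In each pathway list the 5 tested genes with the smallest p, and any called gene with a log2 fold change beyond 1.5, were named, and some are not reported here. Alternatives were other scalings and filters, DESeq2 1.42.0, limma 3.58.1 (voom), the offsets, the replicate number as a block, no mitochondrially encoded genes, an adjusted p under 0.01, a test of log2 fold changes beyond 1 and each library left out. Leaving out ERRg libraries 1 and 2, or 3 and 4, was added after seeing the data.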

Additional observations from a re-analysis of the deposited data

Results flagged for a closer look

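Of 102 groups of 4 libraries checked, 5 held a library set apart from the other 3 by Dixon's test at the 95% level, where chance flags about 1 in 20 groups, or 5.1. VLDLR-AS1 stood at 3.98 CPM in ERRg library 1, above the 2.699 to 2.88 CPM of the other ERRg libraries. Summed receptor RNA stood at 49.1 CPM per kb in ERRg library 3, below the 53.7 to 54.4 of the others. In GFP library 2, LRP1-AS stood at 0.310 CPM, below the 0.641 to 0.698 of the others, LDLRAD4 at 2.75 CPM, below 3.70 to 3.74, and NCSTN at 299.9 CPM, above 262.7 to 268.2. That library had the fewest reads outside exons of the 8 (16.2%), whose part in these values was not tested.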

How the results depend on the processing

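Of the 9 tested members, 7 kept their direction and call under all 20 alternatives computed for single genes, and LRP12 and LRP8 did not. The share of all genes that kept theirs was not computed, so nothing is read from the number of members. LRP12 turned to -0.013 with the offsets and was 0.23, not called, without ERRg libraries 1 and 2. LRP8 became called under upper-quartile factors, library totals, the 1 CPM minimum and the offsets. A test of log2 fold changes beyond 1 left 2 members called higher and 1 lower, 3 pathway genes higher and 23 lower, and 3993 of all genes, against 16428 in the main test. The offsets, fitted over 13426 coding genes instead of 21993 genes, called 9641, and the parts of the gene set and of the offsets in that number were not told apart. Pathway genes called higher became 25 under upper-quartile factors and 27 under library totals. Leaving out 1 library at a time gave 15626 to 16539 calls over all genes, 4 members in each direction, and 13 to 16 pathway genes higher and 49 to 54 lower, where CRK and PIK3R1, called higher in the main test, lost their call in 7 and 6 of the 8. Without ERRg libraries 1 and 2, 3 members were higher and 4 lower, and without 3 and 4, 4 were higher and 4 lower. The depth limits LRP2 in GFP, AMN and DAB2, which rest on few reads.

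Same-numbered libraries did not deviate together (r = 0.0878, -0.158, -0.0797 and -0.0517 for numbers 1 to 4), so the numbers were not taken to pair samples. With the replicate block 15844 genes were called, 4 members were higher and 4 lower, and 14 pathway genes were higher and 50 lower. The block changed no member's call.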
